A study of Homo sapiens with 2 samples.

Results

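The genes described here build the machinery that licenses, starts and carries out DNA replication. They are 48 of the 18417 genes that could be named on the array, chosen by symbol from a list of 48 replication genes, and every one of them had at least 1 probe set of its own. Of these, 46 had 1 probe set and 2 (CLSPN and UHRF1) had 2, in which case the probe set with the higher mean intensity was taken. The cells were U251, an established human glioblastoma line grown in high-glucose DMEM, and they received 5 µM of the Gamitrinib G-TPP or the solvent DMSO for 6 h. G-TPP joins a geldanamycin-type Hsp90 inhibitor to triphenylphosphonium, a cation that collects in mitochondria, where the Hsp90-type chaperone TRAP1 is its intended target. TRAP1 itself read 2297 with G-TPP and 2849.9 with DMSO, and chaperone inhibition was not measured. Each treatment has 1 array, so the differences below come without error or test, and "higher" or "lower" compares only those arrays.

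Before S phase, the origin recognition complex marks replication origins, and CDC6 and CDT1 help it to load the ring-shaped MCM2-7 helicase in an inactive form, a step called licensing. In S phase the kinase CDC7 with its activator DBF4 and the cyclin-dependent kinases turn the loaded helicase into the active CMG complex (CDC45, MCM2-7 and GINS). Polymerases, the sliding clamp PCNA and its loader RFC then copy both strands, while ribonucleotide reductase and thymidylate synthase supply the building blocks. Many of these genes are transcribed at the border of G1 and S phase under the E2F factors, and tumour cells in culture, which divide continuously, express them at readable levels.

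Because E2F control is what many of the members share, the promoter letters of 6 members are shown before their values. They comprise the members at the ends of the range that passed the brightness filter (CDC6, CDC7 and POLE2), MCM10 and PCNA as further low members, and MCM6, whose reading was nearly equal in both arrays. Each window runs 5′ to 3′ on the gene's own strand from 250 bases before to 50 bases after a RefSeq transcription start in GRCh38.p14. Capitals mark the E2F letters TTTCCCGC, TTTGGCGC, TTTCGCGC or TTTGCCGC on either strand, overlapping matches included. The windows lie at chr17:40287629-40287928 on the plus strand (CDC6), chr1:91500862-91501161 plus (CDC7), chr14:49688165-49688464 minus (POLE2), chr20:5126573-5126872 minus (PCNA), chr2:135876394-135876693 minus (MCM6) and chr10:13161308-13161607 plus (MCM10).
CDC6: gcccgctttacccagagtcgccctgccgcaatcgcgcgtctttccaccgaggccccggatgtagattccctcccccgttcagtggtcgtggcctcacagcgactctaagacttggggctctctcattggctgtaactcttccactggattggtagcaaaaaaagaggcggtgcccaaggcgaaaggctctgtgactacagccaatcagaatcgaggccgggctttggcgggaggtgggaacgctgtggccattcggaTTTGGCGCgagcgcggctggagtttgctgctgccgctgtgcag
CDC7: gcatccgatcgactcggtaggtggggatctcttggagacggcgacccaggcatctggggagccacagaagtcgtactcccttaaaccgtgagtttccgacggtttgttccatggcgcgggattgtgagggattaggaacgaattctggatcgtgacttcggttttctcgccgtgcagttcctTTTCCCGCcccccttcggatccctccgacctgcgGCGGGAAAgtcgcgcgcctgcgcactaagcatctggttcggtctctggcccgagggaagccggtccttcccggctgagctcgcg
POLE2: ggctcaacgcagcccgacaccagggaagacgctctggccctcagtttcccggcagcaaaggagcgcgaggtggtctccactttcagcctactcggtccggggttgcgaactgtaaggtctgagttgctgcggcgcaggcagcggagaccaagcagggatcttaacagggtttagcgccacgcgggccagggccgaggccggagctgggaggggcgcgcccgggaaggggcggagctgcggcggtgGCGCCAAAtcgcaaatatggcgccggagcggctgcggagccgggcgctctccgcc
PCNA: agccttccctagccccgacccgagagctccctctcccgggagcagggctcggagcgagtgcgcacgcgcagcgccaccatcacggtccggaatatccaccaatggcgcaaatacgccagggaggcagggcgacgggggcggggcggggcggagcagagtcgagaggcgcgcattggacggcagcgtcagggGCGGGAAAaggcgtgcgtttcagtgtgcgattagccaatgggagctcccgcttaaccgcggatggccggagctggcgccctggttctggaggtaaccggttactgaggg
MCM6: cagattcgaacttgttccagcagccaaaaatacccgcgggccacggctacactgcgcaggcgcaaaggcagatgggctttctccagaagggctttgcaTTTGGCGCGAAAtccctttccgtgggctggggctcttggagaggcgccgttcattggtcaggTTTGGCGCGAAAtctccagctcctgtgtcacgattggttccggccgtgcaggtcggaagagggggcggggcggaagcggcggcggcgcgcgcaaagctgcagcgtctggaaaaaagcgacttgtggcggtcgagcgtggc
MCM10: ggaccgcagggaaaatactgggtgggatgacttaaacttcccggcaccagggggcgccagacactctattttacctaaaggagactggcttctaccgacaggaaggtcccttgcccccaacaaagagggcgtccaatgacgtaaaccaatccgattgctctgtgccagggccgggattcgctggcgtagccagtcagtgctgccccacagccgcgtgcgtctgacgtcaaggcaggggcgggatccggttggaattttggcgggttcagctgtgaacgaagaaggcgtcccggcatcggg
The CDC6 window holds 1 match, 8 bases after the start, and CDC7 holds 2, which begin 68 and 34 bases before it. CDC7 and PCNA each have a second annotated start, and the windows of those starts, not shown, hold no match. In the MCM6 window 2 stretches each read as a match on both strands, which makes 4 matches, and the MCM10 window holds none of the searched letters. Near forms were not searched, and TTTGGCGG, 1 letter away from TTTGGCGC, stands unmarked in the MCM10 and CDC6 windows. The letters alone therefore occur in windows of the highest member, of the lowest and of one that hardly differed.

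Replication genes as a whole were slightly lower with G-TPP, by a small amount per gene. Of the 48, 47 reached the brightness filter (an intensity of 239.2 in the brighter array), and DBF4 did not. The 47 had a median log2 difference, G-TPP minus DMSO, of -0.12, with a lowest value of -0.70 and a highest of 0.80, beside a median of -0.04 over all 11091 genes that reached the filter. Below 0 were 35 of the 47 members (74.5%), beside 55.9% of all genes that reached the filter. Once the all-gene median was subtracted, 32 of the 47 were below 0, whereas all genes then lay about equally on either side. At 1.5-fold or more, 1 member was higher (2.13%, background 7.37% of all genes) and 2 were lower (4.26%, background 3.23%), so the count of lower members was near the background. At 1.2-fold the members split unevenly, with 2 of 47 higher (4.26%, background 19.6%) and 14 of 47 lower (29.8%, background 19.0%). None reached 2-fold, past which 2.80% of all genes were higher and 0.550% lower.

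**Figure D1:**
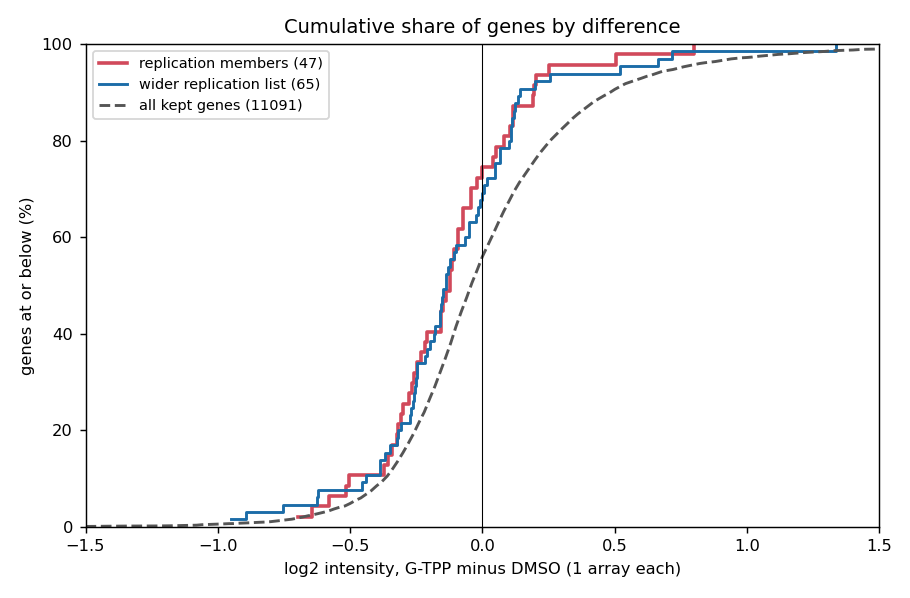
Cumulative share of genes (vertical axis, percent) at or below each log2 difference, G-TPP minus DMSO (horizontal axis), for the 47 replication members, the 65 genes of the wider replication list and all 11091 genes that reached the brightness filter. The members' curve is steeper than that of all genes and lies above it over most of the range, with 74.5% of members and 55.9% of all genes below 0.

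The members' differences had a standard deviation across genes of 0.28 on the log2 scale beside 0.43 over all genes. Olfactory receptor genes are little expressed outside the nose and give a scale for array noise, since 341 of them differed between the arrays with a standard deviation of 0.19. Within that distance of 0 were 23 of the 47 members (48.9%), which is close to the 48.1% of all genes. Within 2 such deviations were 40 members (85.1%), beside 77.4% of all genes. Variation between cultures is not part of this scale, and the receptors are dimmer than the members. Among brighter genes, at a filter on the 75th percentile, 28 of 40 members were below 0 (70.0%), beside 47.2% of 5341 genes.

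**Figure D2:**
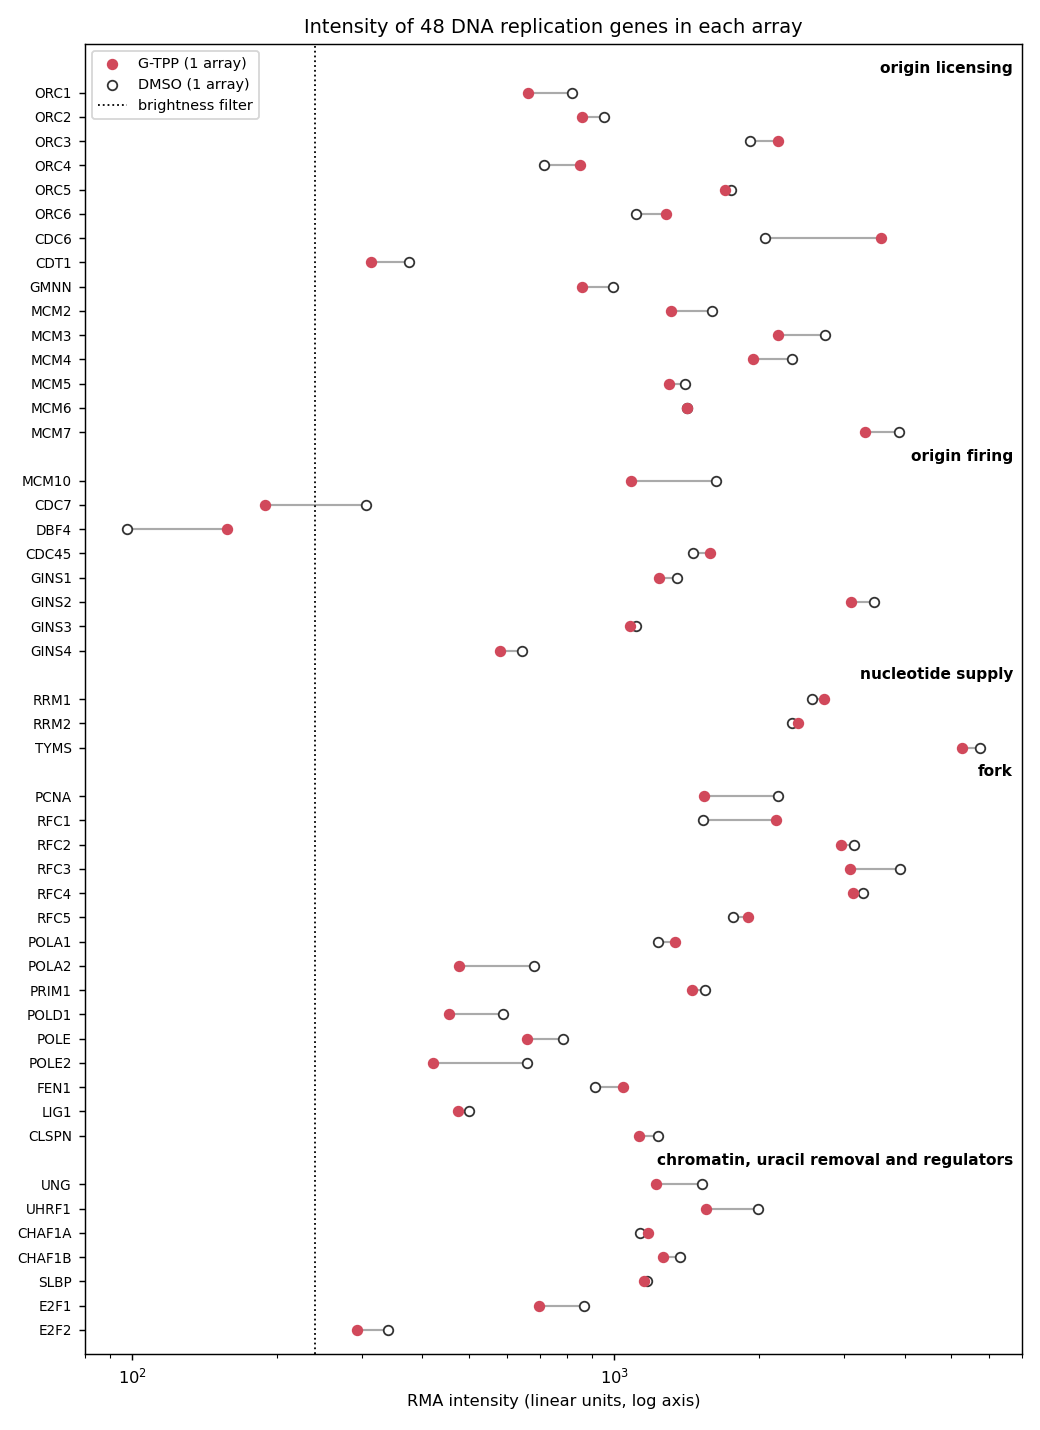
RMA intensity of each of the 48 members (horizontal log axis) in the G-TPP array (filled) and the DMSO array (open), grouped by step from licensing at the top to regulators at the bottom, with the brightness filter as a dotted line. Most filled points sit just left of the open ones, CDC6, RFC1 and DBF4 have their filled points clearly to the right, and DBF4 is left of the filter in both arrays.

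Origin licensing held the highest member, CDC6, beside helicase genes that mostly lay slightly low. CDC6, the loader ATPase that brings MCM2-7 to origins, read 3569 with G-TPP and 2050.1 with DMSO. That is 1.74-fold higher, and 4.27% of all genes that reached the filter had a higher difference. Its partner CDT1 read 313.7 with G-TPP and 375.7 with DMSO, a log2 difference of -0.26. The CDT1 inhibitor geminin, GMNN, read 857.6 and 996.3 in the same order (1.16-fold lower). CDC6 thus stood apart from both the loading partner and its inhibitor, which were each slightly lower.

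All 6 helicase subunits were below 0, beside 55.9% of all genes, and their median log2 difference was -0.25. MCM6 was below 0 only barely, and not once the all-gene median was subtracted. MCM3 had the lowest difference among the 6, at 2187 with G-TPP and 2735 with DMSO (1.25-fold lower). MCM2 read 1315 with G-TPP and 1594 with DMSO (1.21-fold lower). MCM4 read 1941 with G-TPP and 2334 with DMSO, a log2 difference of -0.27. These subunits form a ring with 1 copy of each, and their differences were alike in sign but not in size. MCM7 was 1.17-fold lower, MCM5 had a log2 difference of -0.11, and MCM6 read 1417 with G-TPP and 1419 with DMSO. With the all-gene median subtracted MCM6 was at 0.04, while the other 5 stayed below 0 under each scaling tried.

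Genes of the origin recognition complex went both ways. ORC1, the subunit whose protein is degraded during S phase in human cells, read 662.4 with G-TPP and 816.3 with DMSO (1.23-fold lower). ORC2 was lower too, at a log2 difference of -0.15, and ORC5 differed by -0.04. ORC3, ORC4 and ORC6 had log2 differences of 0.20, 0.25 and 0.20. With 3 subunits above 0 and 3 below, and none at 1.5-fold, the complex had no common direction. Over all 15 licensing genes 11 were below 0 (73.3%, beside 55.9% of all genes). Their median log2 difference was -0.15 and their mean -0.05, beside -0.04 and 0.02 over all genes.

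Firing genes included the lowest member. CDC7, the catalytic subunit of the kinase that activates loaded MCM helicases, read 188.3 with G-TPP and 305.2 with DMSO (1.62-fold lower). After lowess centring on brightness its log2 difference was -0.57, short of 1.5-fold. Its G-TPP reading lies close to the floor that 95% of olfactory receptors stay under, 173.6 in that array. Its activator gene DBF4 read 157.6 with G-TPP and 97.7 with DMSO, under that floor in both arrays (172.6 with DMSO), so no fold is given. The kinase gene was therefore lower at a dim reading, and its activator could not be placed.

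MCM10, which helps the helicase to become active and links it to polymerase alpha, read 1086 with G-TPP and 1623 with DMSO. Its log2 difference of -0.580 stopped just short of 1.5-fold, which is 0.585 on this scale, and 3.29% of all genes had a lower one. CDC45, the third partner of the CMG helicase, went slightly the other way, at 1581 with G-TPP and 1459.7 with DMSO. The 4 GINS genes were all below 0, at -0.12 (GINS1), -0.16 (GINS2), -0.04 (GINS3) and -0.15 (GINS4), though GINS3 was at 0.0012 once the all-gene median was subtracted. Of the 11 genes of the CMG helicase 10 were below 0 (90.9%, beside 55.9% of all genes), CDC45 being the exception. Their median was -0.15, and 7 of the 11 lay within the 0.19 of the olfactory receptors. Once the all-gene median was subtracted, MCM6 and GINS3 were above 0 as well.

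The 3 members of nucleotide supply differed little. RRM1, the large subunit of ribonucleotide reductase, read 2721 with G-TPP and 2572 with DMSO, and the small subunit gene RRM2 read 2403 and 2338 in the same order. TYMS, the thymidylate synthase, read 5259 with G-TPP and 5732 with DMSO. All 3 log2 differences, 0.08, 0.04 and -0.12, were within the 0.19 of the olfactory receptors.

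**Figure D3:**
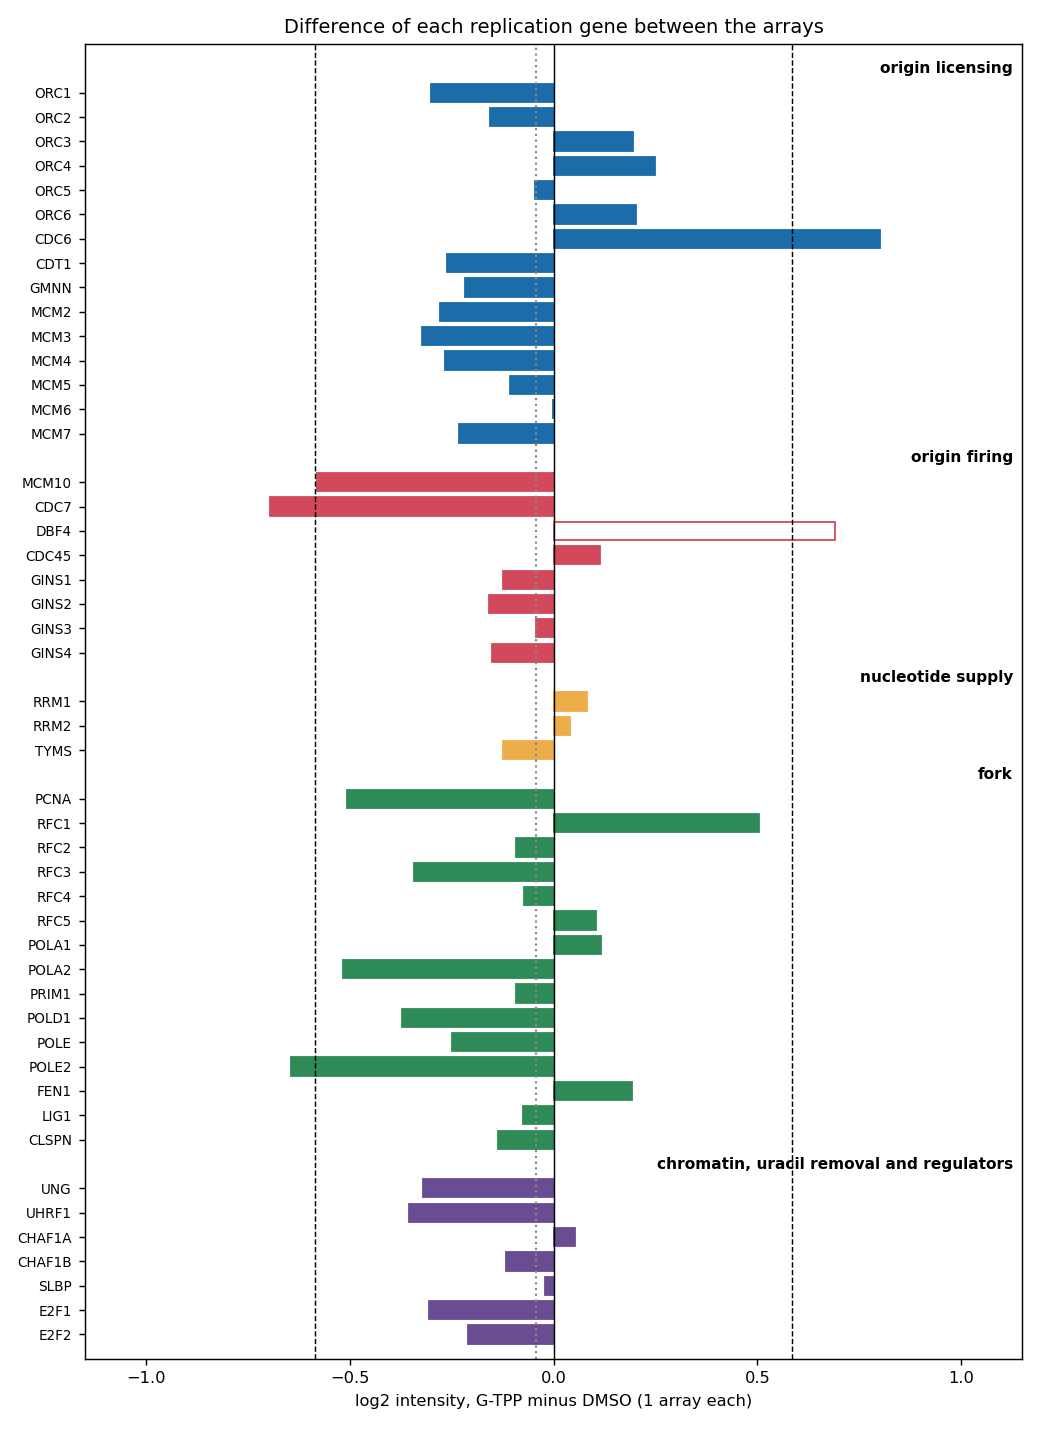
Log2 difference, G-TPP minus DMSO, of each member (horizontal bars, coloured by step, open for DBF4, which did not reach the brightness filter). Dashed lines mark 1.5-fold either way and the dotted line the median of all genes, -0.04. Bars point left for 35 of the 47 members that reached the filter, and CDC6, CDC7 and POLE2 pass a dashed line.

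Among the fork members, the polymerase genes had a lower median than the clamp loader genes. POLE2, the second subunit of the leading-strand polymerase epsilon, read 420.9 with G-TPP and 657.9 with DMSO (1.56-fold lower). Its catalytic partner POLE read 659.7 with G-TPP and 783.9 with DMSO (1.19-fold lower). POLD1, the catalytic subunit of the lagging-strand polymerase delta, read 454.7 and 587.9 in the same order (1.29-fold lower). Of the 6 polymerase and primase genes among the members 5 were below 0 (83.3%, beside 55.9% of all genes). Their median log2 difference was -0.31, beside -0.07 over the 5 clamp loader genes and -0.09 over all 15 fork genes. Further subunits of these enzymes are in the wider replication list and were not counted here. POLD2, POLD4, POLE3 and POLE4 had log2 differences of -0.26, -0.14, -0.26 and -0.32, whereas POLD3 and PRIM2 had 0.11 and 0.14.

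Polymerase alpha, which lays down primers with primase, was not uniform. POLA2, its accessory subunit, read 476.6 with G-TPP and 681.5 with DMSO (1.43-fold lower). The catalytic subunit POLA1 read 1334 with G-TPP and 1231 with DMSO (1.08-fold higher), and the primase gene PRIM1 differed by -0.09. The other primase gene, PRIM2 of the wider replication list, had a log2 difference of 0.14. Subunits of 1 enzyme thus differed in sign, POLA1 and PRIM2 being above 0 and POLA2 and PRIM1 below.

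PCNA, the sliding clamp that tethers polymerases to DNA, read 1538 with G-TPP and 2183 with DMSO (1.42-fold lower). RFC1, the large subunit of the loader that opens the clamp, had nearly the opposite difference, at 2170.1 with G-TPP and 1530.1 with DMSO (1.42-fold higher). RFC3 read 3086 with G-TPP and 3910.0 with DMSO (1.27-fold lower). Clamp and large loader subunit therefore parted, while RFC2, RFC4 and RFC5 had log2 differences of -0.09, -0.07 and 0.10. Of the genes that finish lagging-strand fragments, the flap nuclease FEN1 was 1.14-fold higher and the ligase LIG1 1.05-fold lower. CLSPN, an adaptor of the replication checkpoint, differed by -0.14 by its brighter probe set and 0.02 by the other.

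Among genes that follow the fork or control the programme, 6 of 7 were below 0 (85.7%, beside 55.9% of all genes). Their median log2 difference was -0.21. That median was -0.12 when probe sets of a gene were averaged and -0.14 after lowess centring. E2F1 and E2F2, activators of G1/S transcription, read 699.6 and 293.4 with G-TPP and 865.3 and 339.4 with DMSO (1.24-fold and 1.16-fold lower). UNG, which removes uracil from DNA, read 1219 with G-TPP and 1522 with DMSO (1.25-fold lower). UHRF1, which guides DNA methylation to newly copied strands, was 1.28-fold lower by the brighter of its probe sets. The other gave a log2 difference of 0.16, from readings of 200.5 with G-TPP and 179.9 with DMSO, so the UHRF1 probe sets differ in sign. Both readings of that dimmer probe set lie under the brightness filter, and the averaged median above includes it. The chromatin assembly genes CHAF1A and CHAF1B differed by 0.05 and -0.12, and the histone mRNA binding protein gene SLBP by -0.02. SLBP was at 0.02 once the all-gene median was subtracted.

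E2F letters were common in the members' promoters. RefSeq windows were found for 45 members, 10 of them with several starts, which gave 58 windows, and MCM4, MCM5 and GINS4 were not searched. Of the 58 windows 26 held E2F letters (44.8%), beside 3.31% of 35116 windows of the same length. The CCAAT box (letters CCAAT, either strand) occurred in 33 of the 58 (56.9%), beside 34.6% of all, and overlapped no E2F match in the 6 windows shown. The letters TGATGNAA, part of the element that ATF4 binds, were found in 0 of the 58, beside 3.62% of all.

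The members divide as follows by these letters. Of 25 members with the letters in at least 1 window 22 were below 0, with a median log2 difference of -0.23 and a range of -0.70 to 0.80. Of 19 members without them that reached the filter 10 were below 0, with a median of -0.02 and a range of -0.58 to 0.50. The lowest of these, MCM10, has the near form TTTGGCGG in its window, which was not searched. The 3 members with the letters that lay above 0 were CDC6, ORC3 and POLA1. Outside the members, 54.0% of 591 genes with the letters and 54.4% of 8311 without them were below 0, with medians of -0.02 and -0.03. Whether the members' values differ by these letters was not tested, and neither binding nor promoter activity was measured.

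**Figure D4:**
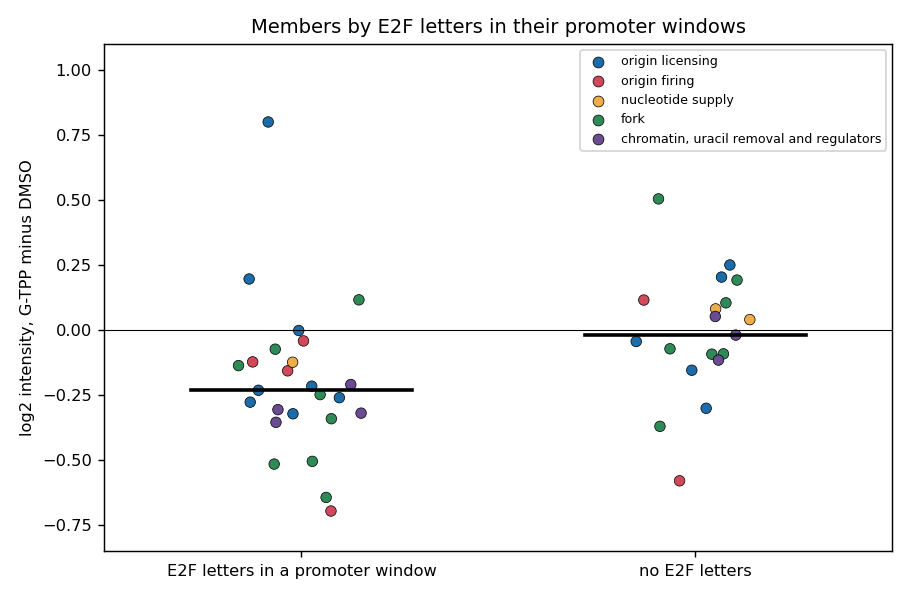
Log2 difference, G-TPP minus DMSO, of members with E2F letters in a promoter window (left, 25 genes) and without (right, 19 genes), coloured by step, with the median as a black line. The left group has its median at -0.23 with 22 points below 0, the right group at -0.02 with 10 below 0.

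The wider replication list holds 68 further genes, of which 65 could be named on the array and all 65 reached the filter. Its median log2 difference was -0.14, with 44 of 65 below 0, close to the -0.12 of the members. Below 0 were 67.7% of the list and 55.9% of all genes. At 1.5-fold or more 3 were higher (4.62%, background 7.37%) and 5 lower (7.69%, background 3.23%). CCNE1 and CCNE2, the cyclins E that drive entry into S phase, read 490.9 and 1044 with G-TPP and 949.7 and 1761 with DMSO (1.93-fold and 1.69-fold lower). The other low genes were E2F8, an atypical repressor of the E2F family (1.86-fold lower), CAD, the enzyme that opens pyrimidine synthesis and so also serves nucleotide supply (1.54-fold lower), and DNA2, a nuclease and helicase of flap processing (1.54-fold lower).

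On the high side, E2F7, the close relative of E2F8, read 2333 with G-TPP and 924.7 with DMSO. It was 2.52-fold higher, the largest difference in the wider list, so this pair of repressors parted in sign. E2F6, another repressor of the family, read 887.6 with G-TPP and 560.2 with DMSO (1.58-fold higher). ASF1A, a histone chaperone, was 1.64-fold higher, whereas its paralogue ASF1B, which is tied to dividing cells, was 1.29-fold lower. RRM2B, the stress-responsive small subunit of ribonucleotide reductase, was 1.43-fold higher, beside 1.03-fold for RRM2.

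General markers of dividing cells mostly did not share the members' direction, and none reached 1.5-fold. MKI67 read 3761 with G-TPP and 3100.4 with DMSO. CDK1 read 2954 with G-TPP and 2298 with DMSO, and 4 of 5 such markers were above 0, BIRC5 being the one below, at -0.20. TOP2A, which is also in the wider list, and CCNB1 had small log2 differences of 0.11 and 0.05. Their summed intensity was 15822 with G-TPP and 14290.1 with DMSO, and their part in the members' differences was not tested. In total RNA of a culture, a smaller share of cells in S phase and less of a transcript per cell cannot be told apart. Of 10 astroglial and glioma markers 9 reached the filter, and several differed far more than the replication genes. The receptor gene PDGFRA was 3.25-fold lower, the stem cell factor SOX2 2.72-fold lower, SOX9 1.98-fold lower and NES 1.42-fold lower, while SLC1A3 was 1.56-fold higher. The list summed to 19424 with G-TPP and 24642 with DMSO, and its part in the members' differences was not tested. The astrocyte marker GFAP stood near the brightness filter of 239.2, at 232 with G-TPP and 245 with DMSO, and S100B stood under that filter. Of 16 markers of immune, endothelial, epithelial and neuronal cells 3 reached the filter (CDH5, KRT14 and RBFOX3), and their list summed to 2494 with G-TPP and 2655 with DMSO. The control gene ACTB differed by -0.11, about the size of the members' median, and GAPDH by -0.06.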

How the data were processed

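Total RNA of U251 cells was taken with Trizol and 6 µg per array became biotin-labelled cRNA for hybridisation, per the labels' protocols. The values are linear intensities, deposited as 1 number for each probe set in each array. RMA and Affymetrix Expression Console 1.1.2 are named in the submitters' processing notes. RMA makes the distributions of arrays alike, so a change in total RNA per cell is not visible. The deposited columns still differed slightly, with a median over probe sets of 215.5 with G-TPP and 224.8 with DMSO. Which arrays entered the run is not given in the sources used here.

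Of 33297 probe sets, 19460 had 1 gene symbol in the platform annotation, 1754 several and 12083 none listed. The first kind gave 18417 genes (RefSeq symbols, GRCh38.p14), with the brightest probe set for each. Differences are log2 G-TPP minus log2 DMSO with no pseudocount. Genes were kept where the brighter array reached 239.2, the median over probe sets, and counted at 1.5-fold, with no test. The number of arrays, 1 per group, limits the precision. Every member is named, as are genes of the wider list past 1.5-fold. Further genes (ASF1B, RRM2B, the polymerase and primase subunits of the wider list, and the proliferation and culture markers) were named after their values were seen or as fixed markers. The members, lists and motifs were chosen with earlier results of these data known. Motif letters were searched on both strands of RefSeq windows. The procedure was tested on simulated data with 2-fold differences and noise smaller than that of the olfactory receptors. Recovery of smaller folds was not tested. Alternatives were the choice of probe set, centring on the median, lowess centring (span 0.3), quantile normalization, log2 of intensity plus 16, other filters and folds, the mean, and POLE and POLE2 counted with firing. Versions were Python 3.11.15, pandas 2.3.3, numpy 2.4.6, matplotlib 3.10.9 and statsmodels 0.14.6.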

Additional observations from a re-analysis of the deposited data

How the results depend on the processing

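Across the alternatives, the median log2 difference of the 47 members stayed between -0.17 (quantile normalization) and -0.08 (all-gene median subtracted), and the medians of licensing, firing, fork and the regulators all stayed below 0. The fork median ranged from -0.14 to -0.05 and that of the regulators from -0.21 to -0.12. Nucleotide supply stayed between 0.0025 and 0.08. The counts of members past a fold moved most. Higher members numbered 1 at 1.5-fold, 2 with no brightness filter (DBF4 added), 2 at a 1.2-fold threshold and 0 at 2-fold. Lower members numbered 2 at 1.5-fold, 0 at the 75th percentile filter, which leaves out CDC7 and POLE2, 14 at 1.2-fold and 0 at 2-fold. After lowess centring CDC7 had a log2 difference of -0.57, short of 1.5-fold, and MCM10 one of -0.60, past it, and quantile normalization also put MCM10 past it at -0.63. UHRF1 moved to -0.10 when both its probe sets were averaged, the dimmer of which lies under the brightness filter. Centring on the median shifts every gene by 0.04, and members near 0, such as MCM6, GINS3 and SLBP, then change sign. Leaving out a replicate was not possible with 1 array per group. For dim genes such as CDC7 and DBF4, signal over background limits what can be said.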
